A study of Mus musculus with 12 samples.

Results

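The 10 genes described here mark T cells and natural killer (NK) cells in mouse kidney. They are the CD3 chains of the T cell receptor complex (Cd3d, Cd3e and Cd3g), the coreceptors Cd4, Cd8a and Cd8b1, the cytokine receptor Il7r, the costimulatory receptor Icos, and the cytotoxic granule genes Gzma and Nkg7. They were taken by symbol from the array's platform annotation, with the probe set of the highest mean where a gene had several. Each of the 10 had 1 probe set, so 10 of the 22206 probe sets on the array, which name 19505 different genes, were the subject. The RNA came from whole kidney of mice aged 16 weeks, 12 samples in 4 groups of 3. Wild type mice received vehicle. The other 3 groups were Alport mice, described in the labels as hemizygous for a nonsense change (G5X) in COL4A5, a basement membrane collagen chain, and they received vehicle, losartan or metformin. Losartan, an angiotensin receptor blocker, was given in drinking water at 125 µg/mL from week 6 to 11 and 250 µg/mL from week 12. Metformin, a glucose-lowering drug, was given at 2.5 mg/mL and then 5 mg/mL over the same weeks. The dosing text runs to week 20, past the stated age of the mice, and calls losartan co-administered, while no sample title names both drugs. All Alport groups carry the same change, and no wild type group received a drug. The labels do not name the vehicle or state that the 3 samples of a group came from separate mice, so each p-value reflects only the scatter of these samples, which may be technical.

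T cells recognise antigen through a receptor whose signal passes inward by the CD3 chains, which every mature T cell carries. Helper T cells use CD4 and cytotoxic T cells use CD8 to hold the antigen-presenting molecule, while NK cells kill without such a receptor, with perforin and granzymes released from granules. Both kinds of cell are sparse in healthy kidney and gather in the interstitium of injured kidneys. In RNA from whole tissue, more cells of a type and more RNA per cell cannot be told apart.

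The deposited values ran from 2.3 to 19.88 on what their range shows to be a log2 scale, with array medians between 5.88 and 6.065 (a log2 level). The number of arrays, 3 per group, limits the precision. Markers of kidney epithelium were present in every sample, among them Slc34a1 of the proximal tubule (18.40 to 19.19) and Umod of the thick ascending limb (18.51 to 18.94). Col4a5 itself read 5.06, 5.83 and 5.40 in wild type samples 1 to 3 and between 4.09 and 4.97 in the 9 Alport samples, so no Alport sample reached a wild type level. It fell by 0.92 ± 0.23 (SE) on the log2 scale in Alport vehicle (limma adjusted p = 0.0116), a call lost without wild type sample 2 (adjusted p = 0.0663) or Alport vehicle sample 2 (0.0519). As a reference for weak signal, the 1091 probe sets of olfactory receptors, genes of the nasal lining, had a 95th percentile between 5.10 and 5.26 across the samples. Col4a5 lay below it in the 9 Alport samples and in wild type sample 1, so its fall ends at a level not told apart from background. Cd4 lay above this weak-signal reference in 12 of 12 samples and Cd3e in 9. Cd8a lay above it in 4, Il7r and Icos in 3 each and Cd3d in 2. Cd3g, Cd8b1, Gzma and Nkg7 lay above it in 0 samples. The NK cell side of the group, Gzma and Nkg7, was therefore read only at levels that olfactory receptor probe sets also reached.

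In Alport kidneys on vehicle, 4 of the 10 genes rose against wild type and 0 fell. In measured signal Il7r rose 2.64-fold, Cd3e 2.33-fold, Cd4 1.91-fold and Icos 1.66-fold. Of the 4, Cd4 alone exceeded the weak-signal reference in wild type, where Il7r, Cd3e and Icos did so in 0 of 3 samples. Their folds are therefore ratios to a level not told apart from background, and no order is read from them. Over all probe sets 8.43% rose and 7.71% fell in this comparison. The median log2 change of the 10 genes was 0.56, beside -0.03 over all probe sets, and 9 of the 10 changes were above 0. The 3 Alport samples lay above all 3 wild type samples for these 4 genes, a pattern that 14.2% of all probe sets showed, and below them for 0 genes (15.5% of all). Calls were made with limma at an adjusted p under 0.05, adjusted by Benjamini-Hochberg over all 22206 probe sets.

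Among the CD3 chains, Cd3e, the epsilon chain that pairs with each of the other two, was the 1 that rose. Its log2 level was 5.15, 4.82 and 4.86 in wild type samples 1 to 3 and 5.84, 5.72 and 6.93 in Alport vehicle samples 1 to 3. The groups did not overlap, and Alport vehicle sample 3 stood about a log2 unit above its group's other samples. The change was 1.22 ± 0.26 (SE, n = 3 per group; limma adjusted p = 0.00397).

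Cd3d, the delta chain, read 4.36, 4.60 and 4.58 in wild type and 4.0, 5.32 and 5.95 in Alport vehicle. Alport vehicle sample 1 was the lowest of all 6 and the other two Alport samples were the highest, so the groups overlapped. The change of 0.58 ± 0.35 did not pass (limma adjusted p = 0.325). Without Alport vehicle sample 1 it passed at 1.12 (adjusted p = 0.0107).

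Cd3g, the gamma chain, read 3.75, 4.25 and 3.56 in wild type and 3.86, 4.06 and 4.95 in Alport vehicle. Its groups overlapped and its levels stayed in the range of the olfactory receptor probe sets. The change was 0.44 ± 0.26 (limma adjusted p = 0.299).

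**Figure D1:**
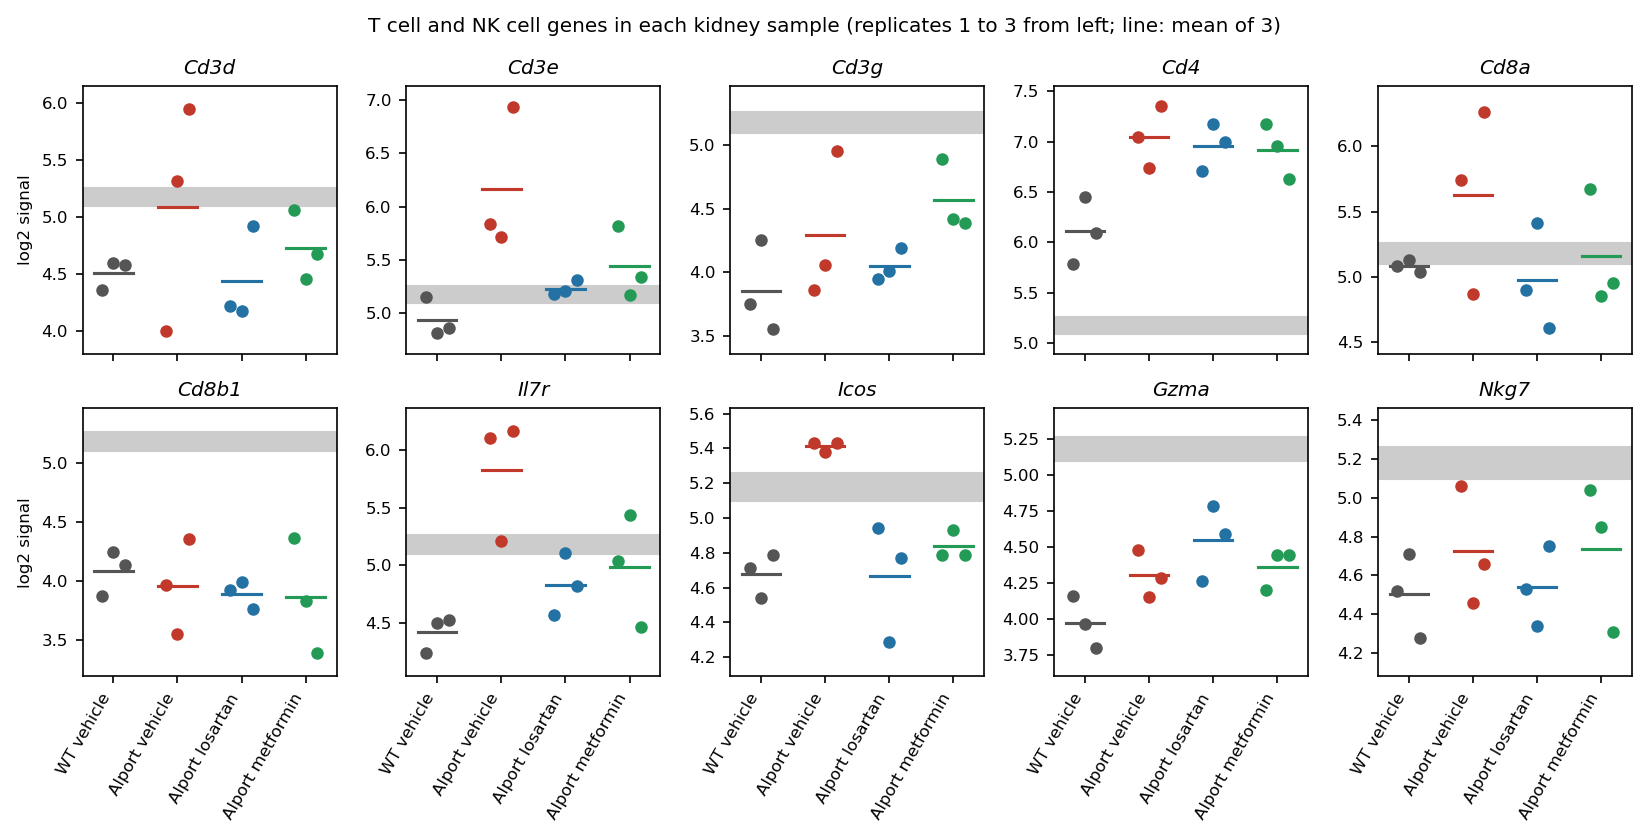
Log2 level of each of the 10 genes in the 12 samples, 1 panel per gene with its own vertical axis, points for samples and a bar for the group mean, with a grey band for the range of the olfactory receptor 95th percentile (5.10 to 5.26). Cd4 lies above the band in all samples, Cd3e, Il7r and Icos are highest in Alport vehicle, and Cd3g, Cd8b1, Gzma and Nkg7 stay below the band in every group.

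The 3 CD3 genes lie side by side on chromosome 9, in the order Cd3g, Cd3d and Cd3e, between Ube4a and Mpzl2. Of these neighbours Cd3e alone was called in Alport vehicle, but no test compared the changes of the 3 genes with each other. Cd3g stayed below the weak-signal reference in every sample. The sequences around their start sites are shown, with that of Il7r, because Cd3e and Il7r were both called in Alport vehicle and with losartan. They are from RefSeq (GRCm38.p6), run 5′ to 3′ on the gene's strand from 250 bases before to 50 after the start, and were held for 7 of the 10 genes. Capitals mark matches on either strand to 4 short motifs of lymphocyte transcription factor families: AGATAA for the GATA family, TGTGGT for RUNX, GGAAGT for ETS and CTTTGA for TCF. A motif on the opposite strand appears as its reverse complement.
Cd3g, chr9:44980382-44980681, minus strand: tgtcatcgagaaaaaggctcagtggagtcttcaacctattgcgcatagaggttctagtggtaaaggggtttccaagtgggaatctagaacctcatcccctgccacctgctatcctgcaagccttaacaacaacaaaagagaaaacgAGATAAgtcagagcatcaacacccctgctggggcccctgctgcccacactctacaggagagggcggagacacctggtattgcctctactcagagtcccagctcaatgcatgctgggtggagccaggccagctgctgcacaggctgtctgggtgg
Cd3d, chr9:44981536-44981835, plus strand: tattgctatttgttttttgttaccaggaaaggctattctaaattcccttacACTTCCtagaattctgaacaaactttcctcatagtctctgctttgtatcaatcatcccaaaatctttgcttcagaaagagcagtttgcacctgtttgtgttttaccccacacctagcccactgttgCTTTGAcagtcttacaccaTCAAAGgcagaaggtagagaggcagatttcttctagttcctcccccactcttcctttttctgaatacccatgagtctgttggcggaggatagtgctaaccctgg
Cd3e, chr9:45009562-45009861, minus strand: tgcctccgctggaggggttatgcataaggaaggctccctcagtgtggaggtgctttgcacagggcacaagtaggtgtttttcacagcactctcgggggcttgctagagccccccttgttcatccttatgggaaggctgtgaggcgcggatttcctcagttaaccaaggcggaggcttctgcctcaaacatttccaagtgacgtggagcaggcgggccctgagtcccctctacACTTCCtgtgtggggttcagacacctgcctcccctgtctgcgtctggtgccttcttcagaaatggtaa
Il7r, chr15:9529827-9530126, minus strand: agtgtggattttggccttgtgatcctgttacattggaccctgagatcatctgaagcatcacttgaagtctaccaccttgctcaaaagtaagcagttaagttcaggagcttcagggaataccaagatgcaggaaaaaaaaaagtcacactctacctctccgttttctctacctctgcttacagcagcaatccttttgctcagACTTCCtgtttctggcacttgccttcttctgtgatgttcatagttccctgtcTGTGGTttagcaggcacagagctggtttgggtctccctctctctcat
The Cd3g and Cd3d starts point away from each other. Cd3g held a GATA match at -104 from its start and Cd3d an ETS match at -199 and TCF matches at -73 and -54. Cd3e held an ETS match at -18, and Il7r an ETS match at -49 and a RUNX match at 4. Of the 7 promoters, 3 held the ETS motif, against 23.8% of the 32851 promoters in the table, and 3 held the RUNX motif (Il7r, Gzma and Nkg7), against 16.8%. The GATA motif was in 1 of 7 (11.2% of all) and the TCF motif in 1 of 7 (16.0% of all). These matches are letters in a window, and the arrays did not measure binding.

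Cd4 is the coreceptor of helper T cells, which some mouse dendritic cells also carry. Its log2 level was 5.79, 6.45 and 6.09 in wild type and 7.04, 6.74 and 7.35 in Alport vehicle. All 3 Alport samples were above all wild type samples, by a smaller gap than for Cd3e or Il7r. The change was 0.93 ± 0.22 (limma adjusted p = 0.00669).

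Cd8a and Cd8b1 encode the chains of CD8, the coreceptor of cytotoxic T cells, and are neighbours on chromosome 6. Cd8a was even across wild type (5.08, 5.13 and 5.04) and uneven across Alport vehicle (5.74, 4.87 and 6.26). Alport vehicle sample 2 was below every wild type sample and the other two Alport samples were above them. The change of 0.54 ± 0.30 did not pass (limma adjusted p = 0.269), and without Alport vehicle sample 2 it passed at 0.92 (adjusted p = 0.0285). Cd8b1 read 3.87, 4.24 and 4.13 in wild type and 3.96, 3.55 and 4.35 in Alport vehicle, a difference of -0.13 ± 0.24 (limma adjusted p = 0.797) at levels of the weak-signal reference.

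Il7r encodes the interleukin 7 receptor alpha chain, through which naive and memory T cells and innate lymphoid cells receive a survival signal. Its log2 level was 4.24, 4.50 and 4.53 in wild type and 6.10, 5.21 and 6.16 in Alport vehicle. The lowest Alport sample was still above the highest wild type sample. All 3 wild type values were below the weak-signal reference, and 2 of the 3 Alport values were above it. The measured rise was 1.40 ± 0.27 (limma adjusted p = 0.00158).

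Icos, a receptor that activated and follicular helper T cells display, read 4.71, 4.54 and 4.79 in wild type. In Alport vehicle it read 5.43, 5.38 and 5.43, the tightest group of any of the 10 genes in Alport vehicle. These 3 samples, and no others of the 12, placed Icos above the weak-signal reference. The change was 0.73 ± 0.18 (limma adjusted p = 0.00833).

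Gzma, a granzyme of NK cells and cytotoxic T cells, ranged from 3.80 to 4.16 in wild type and from 4.15 to 4.48 in Alport vehicle, a change of 0.33 ± 0.18 (limma adjusted p = 0.251). Nkg7, a granule membrane protein of the same cells, ranged from 4.28 to 4.71 and from 4.46 to 5.06, a change of 0.22 ± 0.22 (adjusted p = 0.568). Both overlapped between the groups.

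The 4 calls held in each of the 6 fits that left out 1 wild type or Alport vehicle sample. The highest limma adjusted p in those fits was 0.0191 for Cd3e, 0.0416 for Cd4, 0.0395 for Icos and 0.0116 for Il7r. Centring each array on its median moved the median change of all probe sets from -0.03 to -0.17, and the split over all probe sets from 1871 up and 1711 down to 1451 up and 2842 down. The 10 genes then still counted 4 up and 0 down, with a median change of 0.42.

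**Figure D2:**
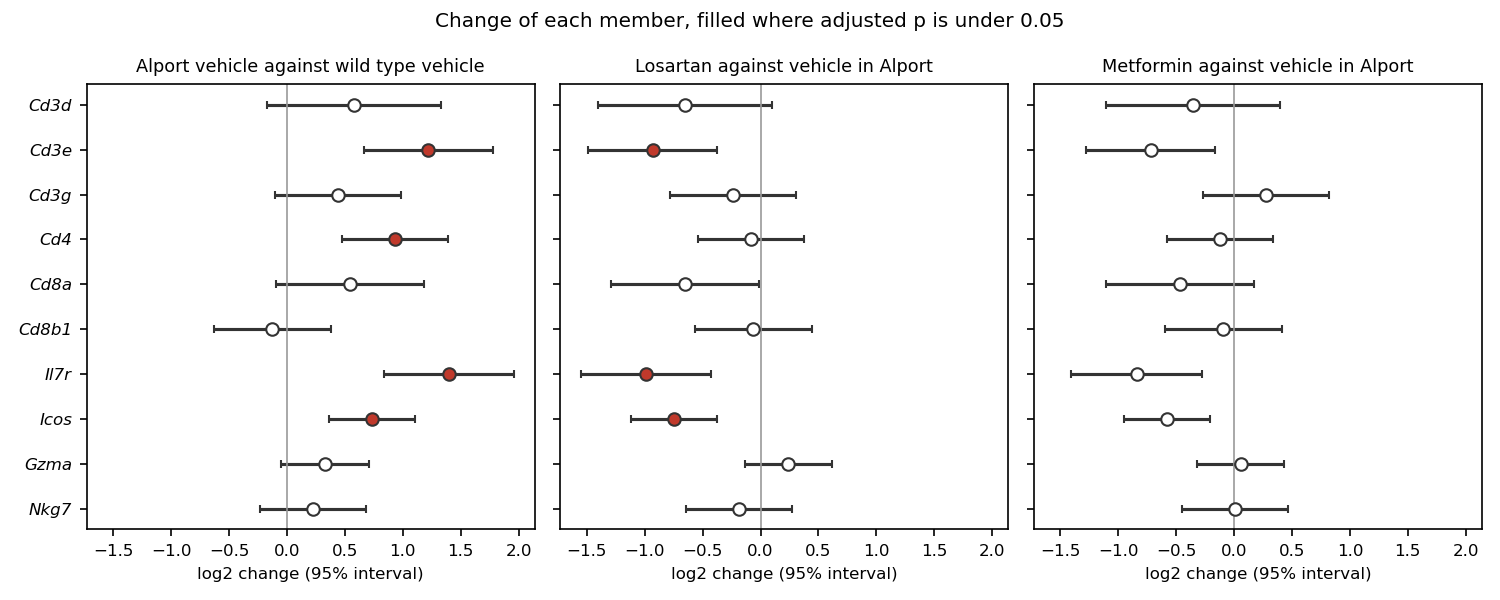
Log2 change of each of the 10 genes with its 95% confidence interval in the comparisons of Alport vehicle with wild type and of each drug with vehicle in Alport mice, filled where the limma adjusted p was under 0.05. In Alport vehicle Il7r (1.40), Cd3e (1.22), Cd4 (0.93) and Icos (0.73) are filled, with losartan Il7r, Icos and Cd3e are filled below 0 while Cd4 sits at -0.08, and with metformin none is filled.

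With losartan, Cd3e, Il7r and Icos fell against Alport vehicle and Cd4 did not pass. Of the 10 genes 0 rose and 3 fell, where 3.79% of all probe sets rose and 4.11% fell. The median change was -0.45, beside 0.01 over all probe sets. The losartan samples lay below all Alport vehicle samples for these 3 genes, a pattern of 11.3% of all probe sets, and above them for 0 genes (11.8% of all).

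Cd3e read 5.18, 5.21 and 5.31 in losartan samples 1 to 3, a narrow band below all Alport vehicle samples, and fell by 0.93 ± 0.26 on the log2 scale (1.91-fold, limma adjusted p = 0.0396). Il7r read 4.57, 5.11 and 4.82 and fell by 0.99 ± 0.27 (1.99-fold, limma adjusted p = 0.0315). Icos read 4.94, 4.29 and 4.77, which overlapped the wild type range, and fell by 0.75 ± 0.18 (1.68-fold, limma adjusted p = 0.0162). Il7r and Icos each lay above the weak-signal reference in 0 of 3 losartan samples, so their folds end at a level not told apart from background. Cd3e lay above it in 3 of 3, but only just in samples 1 and 2. The reference stood at 5.165, 5.20 and 5.145 in losartan samples 1 to 3, so the fold of Cd3e also ends near background. All 3 calls depended on single samples. That of Cd3e was lost without Alport vehicle sample 1 (limma adjusted p = 0.0522) or 3 (-0.55, 0.146), or losartan sample 1 (0.0929), 2 (0.119) or 3 (0.0866). That of Il7r was lost without Alport vehicle sample 1 (0.138) or 3 (0.119), or losartan sample 1 (0.106), 2 (0.0529) or 3 (0.0871). That of Icos was lost without Alport vehicle sample 1 (0.0594) or losartan sample 2 (0.0941). Without losartan sample 2 the number of genes called was 0, and without Alport vehicle sample 1 or 3, or losartan sample 1 or 3, it was 1. Cd3e also missed the threshold after median centring (0.0508) or a new quantile normalization (0.0590) and when only the groups compared were fitted (0.0767), where Icos missed it too (0.0504).

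Cd4 read 6.71, 7.17 and 7.00 with losartan, overlapping the Alport vehicle samples. Its difference was -0.08 ± 0.22 (95% interval -0.54 to 0.38, limma adjusted p = 0.889). Cd3d read 4.22, 4.18 and 4.92 (-0.65 ± 0.35, limma adjusted p = 0.33) and passed without Alport vehicle sample 1 (-1.20, adjusted p = 0.0237). Cd8a read 4.90, 5.41 and 4.61 (-0.65 ± 0.30, limma adjusted p = 0.235) and passed without Alport vehicle sample 2 (-1.03, adjusted p = 0.0266). The 4 remaining differences lay between -0.24 for Cd3g and 0.24 for Gzma, whose losartan samples (4.26, 4.78 and 4.59) held its highest level of the 12.

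With metformin, 0 of the 10 genes passed against Alport vehicle in limma, where 2.67% of all probe sets rose and 2.27% fell. At an unadjusted p under 0.05 there were 3 genes, a threshold for which the share of all probe sets is not given here. The median change of the 10 was -0.24, beside -0.01 over all. Il7r read 5.04, 5.44 and 4.47 (-0.84 ± 0.27, limma adjusted p = 0.084), Cd3e 5.82, 5.17 and 5.34 (-0.72 ± 0.26, 0.135) and Icos 4.79, 4.93 and 4.79 (-0.58 ± 0.18, 0.0724). Icos was the 1 gene whose metformin samples all lay below the Alport vehicle samples, which 9.88% of all probe sets did, and 0 genes had them all above (10.6% of all). Il7r passed without Alport vehicle sample 2 (-1.15, adjusted p = 0.0144). Cd4 read 7.17, 6.96 and 6.63, a difference of -0.12 ± 0.22 (95% interval -0.58 to 0.34, limma adjusted p = 0.840). Cd3g was at 0.28 ± 0.26 (adjusted p = 0.646), and the other differences from vehicle, including Cd3d (-0.36) and Cd8a (-0.47), did not pass.

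The drugs share their vehicle control, so the pair was compared directly. Between metformin and losartan limma called 0 of the 10 genes, where 0.018% of all probe sets rose and 0.027% fell. At an unadjusted p under 0.05 there were 0 genes, and the share of all probe sets at that threshold is not given here. The differences of metformin minus losartan for the 3 genes that fell with losartan were 0.21 for Cd3e (95% interval -0.35 to 0.77), 0.15 for Il7r (-0.41 to 0.71) and 0.17 for Icos (-0.20 to 0.54). These intervals include 0 and also include differences of more than 0.5 log2 units, so the data do not show that the drugs acted alike. Cd3g was higher in all 3 metformin samples (4.89, 4.42 and 4.39) than in all 3 losartan samples (3.95, 4.01 and 4.19), by 0.52 ± 0.26 (limma adjusted p = 0.632). It was the 1 gene of the 10 with such a gap, seen in 5.77% of all probe sets, and 0 had the opposite gap (7.74% of all).

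Compared with wild type, Cd4 was the 1 gene of the 10 called in a treated Alport group. With metformin it rose by 0.81 ± 0.22 (1.75-fold, limma adjusted p = 0.0452), 1 of 10 genes called where 2.7% of all probe sets rose and 1.48% fell. That call was lost without wild type sample 1 (adjusted p = 0.162) or 3 (0.132) or metformin sample 1 (0.200) or 2 (0.126), and on median centring (0.0518), new quantile normalization (0.0671) or fitting only the groups compared (0.0558). With losartan Cd4 was at 0.85 ± 0.22 (limma adjusted p = 0.112). Limma called 0 of 10 genes there, where 0.401% of all probe sets rose and 0.149% fell. At an unadjusted p under 0.05 there were 2 genes, and the share of all probe sets at that threshold is not given here. The difference of Cd4 against wild type was 0.93, 0.85 and 0.81 log2 units in the vehicle, losartan and metformin groups, and the 9 Alport samples (6.63 to 7.35) all lay above the 3 wild type samples (5.79 to 6.45). These comparisons share the wild type samples. The treated samples also lay above every wild type sample for Gzma (0.57 ± 0.18 with losartan, limma adjusted p = 0.204, and 0.39 ± 0.18 with metformin, 0.267) and for Cd3e (0.29 and 0.50). Il7r did so with losartan (0.41) and Cd3g with metformin (0.71). Some of these gaps were narrow. The lowest treated and the highest wild type sample read 5.17 and 5.15 for Cd3e and 4.20 and 4.16 for Gzma. For Il7r with losartan they read 4.57 and 4.53, and for Cd3g with metformin 4.39 and 4.25. Gzma and Cd3g lay below the weak-signal reference in every sample, and Il7r in every losartan sample. In all, 4 of 10 genes had losartan samples above wild type without overlap, beside 8.4% of all probe sets, and 4 of 10 had such metformin samples, beside 10.6%. None of the 10 lay below wild type without overlap with either drug, beside 8.32% of all probe sets with losartan and 12.2% with metformin. Icos was at -0.01 with losartan and 0.16 with metformin against wild type, so its mean lay near the wild type mean in both.

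**Figure D3:**
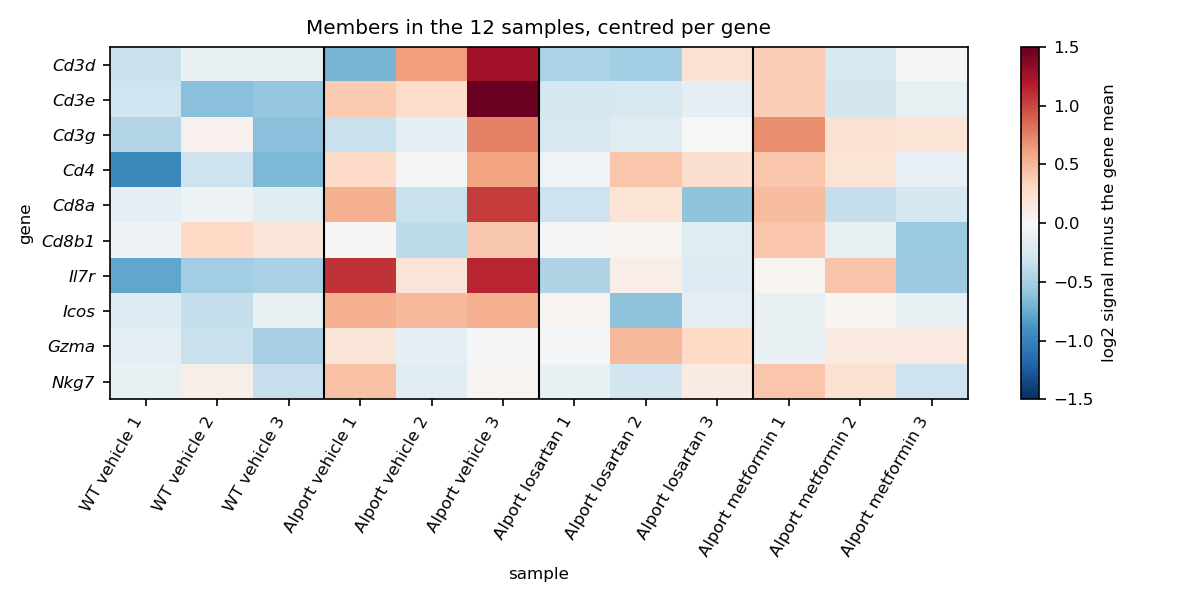
Log2 level of the 10 genes in each of the 12 samples as a difference from the gene's own mean over the 12 samples, columns grouped as wild type vehicle, Alport vehicle, Alport losartan and Alport metformin, with the colour scale in log2 units. Alport vehicle sample 3 and metformin sample 1 are the warmest columns of their groups, being the highest of their group for 8 and 7 of the 10 genes.

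Samples within a group differed from each other across several of these genes at once. Alport vehicle sample 3 was the highest of its group for 8 of the 10 genes and Alport vehicle sample 2 the lowest for 8. Metformin sample 1 was the highest for 7 and metformin sample 3 the lowest for 6, with a tied sample counted for Icos in each group. The mean log2 level of the 10 genes was 4.56, 4.72 and 4.57 in wild type samples 1 to 3 and 5.15, 4.95 and 5.63 in Alport vehicle samples 1 to 3. It was 4.72, 4.85 and 4.87 in losartan samples 1 to 3 and 5.20, 4.93 and 4.74 in metformin samples 1 to 3. The mean level of 11 macrophage markers, genes of phagocytes that also enter injured kidney, ran from 6.70 to 6.89 in wild type. It was 9.20, 8.45 and 9.70 in Alport vehicle samples 1 to 3, 7.68 to 8.15 with losartan, and 9.07, 8.67 and 7.92 in metformin samples 1 to 3. It ranked the samples of the Alport vehicle and metformin groups as the mean of the 10 genes did, while the order within the wild type and losartan groups is not given here. With 3 samples per group an order can match by accident, and a link was not tested. In Alport vehicle 9 of the 11 macrophage markers rose (median change 1.72), where 8.43% of all probe sets rose. With losartan 6 of 11 fell, where 4.11% of all fell, and with metformin 1 of 11 fell (Mrc1 by 1.75, limma adjusted p = 0.0388), where 2.27% of all fell. The Mrc1 samples overlapped, from 7.93 to 9.71 with metformin and from 9.40 to 11.54 in Alport vehicle. How that call fared on leaving out a sample is not given here. Of the other cell types that whole kidney could hold, 2 of 8 dendritic cell markers (Cd209a and Xcr1), 1 of 9 B cell and plasma cell markers (Jchain), 1 of 8 neutrophil markers (Retnlg) and 0 of 6 innate lymphoid cell markers rose in Alport vehicle. Against the 8.43% of all probe sets that rose, the counts of 1 or 0 are near the background. The change of Jchain itself was large. It ran from 5.20 to 5.36 in wild type, near the weak-signal reference, and from 7.57 to 8.57 in Alport vehicle. With losartan it ran from 4.79 to 5.44 and with metformin from 4.78 to 5.92. Mzb1 of the same list went the other way, from 3.42 to 3.97 in wild type and from 2.95 to 3.37 in Alport vehicle. Retnlg lay below the weak-signal reference in wild type (3.55 to 3.86) and in Alport vehicle (4.11 to 4.53). The part of these cell types in the changes of Cd4, Il7r and the others was not tested.

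Wider lists of lymphocyte genes had 0 to 3 genes that rose in Alport vehicle, beside 8.43% of all probe sets and a median change of -0.03 over all. Of 18 measured genes of T cell receptor signalling 3 rose in Alport vehicle and 0 fell (median change 0.28). The kinase Fyn, which acts at the receptor but is not limited to T cells, rose by 1.02 ± 0.16 (limma adjusted p = 0.000343), from 6.22 to 6.30 in wild type to 7.13 to 7.44 in Alport vehicle. The phosphatase Ptprc (CD45), carried by all leukocytes, rose by 0.85 (adjusted p = 0.0219), a call lost without wild type sample 1 (0.0845) or 2 (0.0809) or Alport vehicle sample 2 (0.0796). The adaptor Lcp2 rose by 0.66 (adjusted p = 0.0229), lost without wild type sample 2 (0.0979) or Alport vehicle sample 3 (0.0815), and on median centring (0.0634). Lcp2 stayed below the weak-signal reference in wild type (4.08 to 4.41) and in Alport vehicle (4.82 to 5.07). With either drug 0 of the 18 were called in limma. Over all probe sets 3.79% rose and 4.11% fell with losartan, and 2.67% rose and 2.27% fell with metformin. At an unadjusted limma p under 0.05 there were 3 for losartan and 0 for metformin. The share of all probe sets at that unadjusted threshold is not given here, so these counts are not read as a result. Against wild type, Fyn was still higher with metformin (0.71), a call lost in 5 of the 6 fits that left out a sample, all but the one without metformin sample 3, with adjusted p-values up to 0.0954.

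Of 12 transcription factors of T cells 2 rose in Alport vehicle and 0 fell (median change 0.19). Runx1, which acts in blood cells and in other tissues, rose by 2.78 ± 0.36 in measured log2 signal (limma adjusted p = 6.15e-05), from 4.20 to 4.42 in wild type to 6.48 to 7.49 in Alport vehicle. Its wild type levels were below the weak-signal reference, so the size of the rise is relative to a level near background. Ets1, a factor of lymphocytes and endothelium, rose by 1.07 ± 0.22 (adjusted p = 0.00331). Ikzf3 was at 0.45 (adjusted p = 0.124). With losartan Runx1 fell by 1.60 (limma adjusted p = 0.0123), lost without Alport vehicle sample 1 (0.0682) or losartan sample 2 (0.0668). Ets1 fell by 0.92 (0.0195), lost without Alport vehicle sample 1 (0.0842) or 3 (0.0824) or losartan sample 2 (0.0803) or 3 (0.0744). With metformin Ets1 fell by 0.97 (limma adjusted p = 0.0211), lost without Alport vehicle sample 1 (0.0885) or 3 (0.0779) or metformin sample 3 (0.113), and on fitting only the groups compared (0.0834). Runx1 was still above wild type with metformin, by 1.92 ± 0.36 (limma adjusted p = 0.0058). With losartan Runx1 was at 1.19 against wild type (adjusted p = 0.188).

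**Figure D4:**
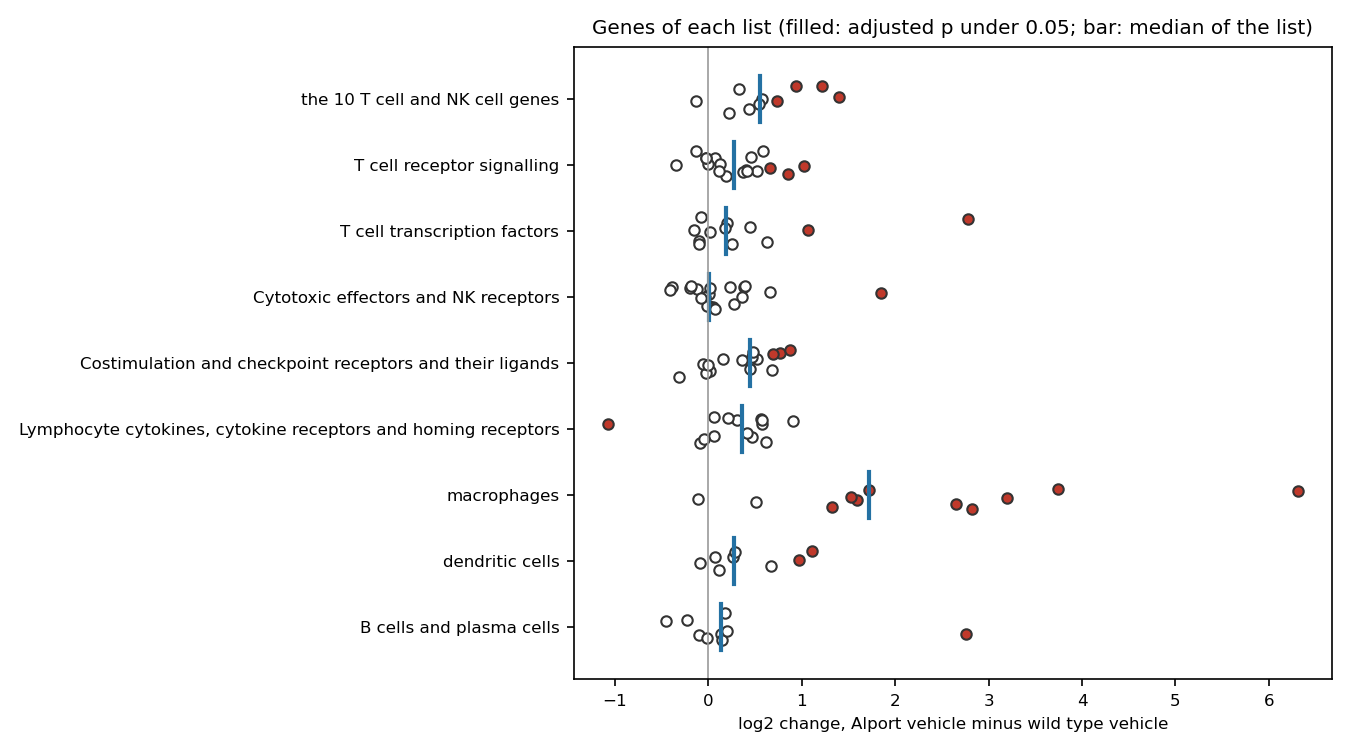
Log2 change in Alport vehicle against wild type for each measured gene of the 10-gene set, of 5 wider lymphocyte lists and of marker lists of other cell types, 1 point per gene, filled where the limma adjusted p was under 0.05, with a bar at each list's median. The medians are 0.56 for the 10 genes, 0.01 for the cytotoxic and NK list and 1.72 for macrophages.

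Among 20 measured cytotoxic effectors and NK receptors 1 rose in Alport vehicle and 0 fell. The median change was 0.01, and -0.13 after median centring. The gene that rose was Ccl5, a chemokine that activated T cells and other leukocytes secrete, by 1.85 ± 0.34 (limma adjusted p = 0.0012), from 4.0 to 4.16 in wild type, below the weak-signal reference, to 5.57 to 6.36 in Alport vehicle. Ifng was at 0.66 (adjusted p = 0.0689, and 0.0276 without Alport vehicle sample 3) and Gzmc at -0.41 (0.151, and 0.0493 on median centring). Ccl5 fell by 1.40 with losartan (limma adjusted p = 0.0184), lost without Alport vehicle sample 1 (0.0602) or 3 (0.0766) or losartan sample 2 (0.0868) or 3 (0.0794).

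Of 15 costimulatory and checkpoint receptors and their ligands 3 rose in Alport vehicle and 0 fell (median change 0.45). Lag3, an inhibitory receptor related to CD4 and its neighbour on chromosome 6, rose by 0.87 ± 0.21 (limma adjusted p = 0.00964, and 0.0511 without Alport vehicle sample 3). Its levels in wild type (3.75 to 4.12) and Alport vehicle (4.35 to 5.07) all lay below the weak-signal reference. Cd86, a ligand of CD28 on antigen-presenting cells, rose by 0.76 (adjusted p = 0.0391), and Icosl, the ligand of ICOS, by 0.70 (adjusted p = 0.0441). The call of Cd86 was lost without wild type sample 1 (0.131) or 2 (0.112) or Alport vehicle sample 1 (0.0687) or 3 (0.183). The call of Icosl was lost without wild type sample 2 (0.135) or 3 (0.184) or Alport vehicle sample 1 (0.0539), 2 (0.0507) or 3 (0.181). On median centring both missed the threshold (0.0716 for Cd86 and 0.0911 for Icosl). Cd86 also missed it with a new quantile normalization (0.0706) or array weights (0.0537), and Icosl when only the groups compared were fitted (0.0698). The list had 0 of 15 called with either drug in limma. Over all probe sets 3.79% rose and 4.11% fell with losartan, and 2.67% rose and 2.27% fell with metformin. At an unadjusted limma p under 0.05 the list had 5 for losartan and 2 for metformin. The share of all probe sets at that unadjusted threshold is not given here, so these counts are not read as a result.

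Of 14 lymphocyte cytokines, cytokine receptors and homing receptors 0 rose and 1 fell in Alport vehicle (median change 0.36). The gene that fell was Il15, a cytokine that sustains NK cells and memory CD8 T cells and that kidney epithelium also makes. Its log2 level ran from 7.72 to 8.21 in wild type and from 6.41 to 7.25 in Alport vehicle, with no overlap, a fall by 1.07 ± 0.24 (limma adjusted p = 0.00479). It ran from 7.41 to 7.90 with losartan and from 7.48 to 8.12 with metformin. Il15 rose with losartan (0.87 ± 0.24, limma adjusted p = 0.0335), where Il7r and Cd3e fell, and with metformin (0.89 ± 0.24, 0.0417). The losartan call was lost without Alport vehicle sample 1 (0.166) or 3 (0.0760) or losartan sample 1 (0.106) or 3 (0.106). The metformin call was lost without Alport vehicle sample 1 (0.182) or 3 (0.0859) or metformin sample 1 (0.0561), 2 (0.0541) or 3 (0.193). Il2ra (0.56, adjusted p = 0.0551, and 0.0440 with the dimmest probe sets left out) and Cd69 (0.57, 0.101) did not pass in Alport vehicle. With metformin Cxcr3, a chemokine receptor of activated T cells and NK cells, fell by 0.84 (limma adjusted p = 0.0184), lost without Alport vehicle sample 3 (0.0706) or metformin sample 3 (0.0813), and on fitting only the groups compared (0.0512). Cxcr3 was at 0.06 in Alport vehicle against wild type (adjusted p = 0.880), and with metformin it was below wild type by limma (-0.78, adjusted p = 0.0292). That call was lost without wild type sample 1 (0.110) or 3 (0.104) or metformin sample 1 (0.107), 2 (0.0635) or 3 (0.0670). Il21r, the interleukin 21 receptor, fell by 0.78 (adjusted p = 0.0481), lost without Alport vehicle sample 1 (0.122) or 2 (0.136) or metformin sample 1 (0.108) or 3 (0.198), and on median centring (0.0695), a new quantile normalization (0.0643), array weights (0.0644) or fitting only the groups compared (0.0953). Il21r lay below the weak-signal reference in both groups, at 4.32 to 4.94 in Alport vehicle and 3.59 to 4.13 with metformin.

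The genes with the profile nearest to the mean of the 3 CD3 chains were not genes of the lymphocyte lists. That mean includes Cd3d, above the weak-signal reference in 2 of the 12 samples, and Cd3g, above it in 0. The ranking therefore rests in part on signal near background. Likeness was the root mean square distance between profiles over the 12 samples, each centred on its own mean, ranked over 19562 other named probe sets. The nearest were Naip5 (0.17 log2 units), Ube2l6 (0.18), AI504432 (0.19), Cyp4f41-ps (0.19) and Trerf1 (0.20), where the CD3 profile's own root mean square over the samples was 0.44. From the wider lymphocyte lists, S1pr1, the receptor by which T cells leave lymphoid tissue, came nearest at rank 102, followed by Prf1 (perforin) at rank 324. Among the 10 genes themselves the smallest distance was between Cd8b1 and Nkg7 (0.30), neither of which was called in any comparison. Both lay below the weak-signal reference in every sample and varied little, with ranges of 0.97 and 0.78. Profiles that vary little are close on this measure, so no likeness is read from the pair. Cd3d and Cd3g were 0.39 apart and Cd3e and Il7r also 0.39.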

How the data were processed

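Total RNA from whole kidney of 12 samples was hybridised as biotin-labelled DNA to a 1-colour expression array. The values used are the authors' deposited log2 levels, 1 per probe set and sample; the log2 scale was read from their range. Per the submitters' processing notes, Transcriptome Analysis Console 4.0 was used, while the background correction and normalization were not given in the sources used here. All 22206 probe sets were kept. Genes were named from the platform annotation (19572 probe sets with 1 symbol, 0 with several, 2634 with none). The 10 genes and the wider lists were chosen with earlier results of these data known. All 10 are named, and from each list up to 3 genes with the smallest p in Alport vehicle against wild type, besides genes called in a drug comparison, which were named after their values were seen. A mean per group was fitted in R 4.3.3 by limma 3.58.1 (functions lmFit, contrasts.fit and eBayes) over the 12 arrays together, leaving 8 residual degrees of freedom. The 6 comparisons were two-sided, with Benjamini-Hochberg adjustment over all probe sets and calls at adjusted p under 0.05. The script was tested on simulated data. Listed genes with no probe set of that symbol, such as Lck, Foxp3 and Gata3, were not analysed here. Promoter sequences are from RefSeq (GRCm38.p6), and protein sequences were not used here. Alternatives were median centring, a new quantile normalization, leaving out the third of probe sets with the lowest means, a trended robust prior, array weights, fitting only the groups compared, the replicate number as a block, and leaving out each sample in turn.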

Additional observations from a re-analysis of the deposited data

Results flagged for a closer look

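Cd3g was picked out because every losartan sample lay on one side of the Alport vehicle mean and every metformin sample on the other, a difference that did not pass its test. The Alport vehicle samples read 3.86, 4.06 and 4.95, with a mean of 4.29 that rests on sample 3, and they overlapped both drug groups. The losartan samples read 3.95, 4.01 and 4.19 and the metformin samples 4.89, 4.42 and 4.39. Against vehicle neither the losartan difference (-0.24 ± 0.26) nor the metformin difference (0.28 ± 0.26) passed in limma, and without Alport vehicle sample 3 the losartan difference was 0.09, the same direction as metformin. The difference of metformin minus losartan was 0.52 ± 0.26 on the log2 scale (limma adjusted p = 0.632, 3 samples per group). All these levels were below the 95th percentile of the olfactory receptor probe sets.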

How the results depend on the processing

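Of 60 changes, 10 genes in 6 comparisons, 8 were called, and 0 of those 8 turned direction under any alternative. The genes called in Alport vehicle against wild type numbered 4 under each of the 7 alternatives other than leaving out a sample, and 4 to 5 on leaving out a sample. With losartan a new quantile normalization lost the call of Cd3e, and the replicate number as a block lost that of Il7r. The number called there was 3 in the reported fit, 2 on median centring, 1 when only the groups compared were fitted, and 0 to 4 on leaving out a sample. With metformin it was 0 to 1 on leaving out a sample. For metformin against wild type it was 0 on median centring, new quantile normalization, fitting only the groups compared, and with the replicate number as a block, and 0 to 1 on leaving out a sample. The replicate numbers did not pair the samples: deviations of same-numbered samples correlated between -0.14 and 0.08, and in 0 of 6 pairs of groups were all over 0.1. With that block the calls of Cd4 with metformin against wild type (adjusted p = 0.0680) and of Il7r with losartan (0.0517) were lost, as were those of Il15 with losartan (0.0521) and metformin (0.0632) and of Cd86 (0.0587) and Icosl (0.0656) in Alport vehicle. Changes that turned direction without being called were Cd4 (0.0083) and Cd8b1 (0.0283) with losartan and Nkg7 with losartan against wild type (-0.01), all on median centring, and Cd8b1 between the drugs with array weights (0.0079). On leaving out a sample, the range crossed 0 against Alport vehicle with losartan for Cd4 (-0.24 to 0.07), Cd8b1 (-0.27 to 0.14) and Cd3g (-0.46 to 0.09), and with metformin for Gzma (-0.02 to 0.15), Nkg7 (-0.15 to 0.22), Cd3d (-0.90 to 0.0733), Cd4 (-0.28 to 0.03) and Cd8b1 (-0.34 to 0.14). It crossed 0 against wild type for Cd8b1 in Alport vehicle (-0.33 to 0.075), with losartan for Nkg7 (-0.075 to 0.14), Icos (-0.15 to 0.18), Cd3d (-0.31 to 0.0567) and Cd8a (-0.33 to 0.0717), and with metformin for Cd8a (-0.18 to 0.23) and Cd8b1 (-0.47 to 0.015). Between the drugs it did so for Cd8b1 (-0.28 to 0.21), Cd4 (-0.17 to 0.11), Icos (-0.0183 to 0.31), Cd8a (-0.0733 to 0.40) and Il7r (-0.0783 to 0.41). The causes were not tested. The rise of Il15 was lost on fitting only the groups compared with losartan (adjusted p = 0.0513) and metformin (0.0990), and with array weights for metformin (0.0579). Probe sets called with metformin against Alport vehicle fell from 1096 to 410 on fitting only the groups compared, and with losartan against wild type they numbered 122, 195 with array weights and 285 on fitting only the groups compared. Between the drugs they numbered 10, 17 with array weights and 3 on fitting only the groups compared. Leaving out a sample moved these totals further, and with them the shares of all probe sets given above: between the drugs to 5 without losartan sample 2, to 6 without losartan sample 1 or metformin sample 1 and to 91 without metformin sample 3. Metformin against Alport vehicle went to 347 and 728 without Alport vehicle samples 1 and 3, and to 647 and 266 without metformin samples 2 and 3. Losartan against Alport vehicle went from 1755 to 737 without Alport vehicle sample 1 and to 716 and 959 without losartan samples 2 and 3. Against wild type the range was 37 to 62 with losartan (lowest without wild type sample 3) and 346 to 1019 from 928 with metformin (lowest without metformin sample 1). In Alport vehicle against wild type it was 2549 to 3756, from 3582. On median centring the split with losartan moved from 842 up and 913 down to 1238 up and 724 down, that with metformin from 592 up and 504 down to 827 up and 381 down, and that with metformin against wild type from 599 up and 329 down to 513 up and 486 down. Other probe sets of a gene could not be tried, since each of the 10 had 1. Leaving out the third of probe sets with the lowest means removed Cd3g, Cd8b1, Gzma and Nkg7, whose signal near background limits what their values show.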
